A study of Mus musculus with 21 samples.

Results

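Zscan4c, Usp17lc, Usp17le, Tcstv3, Zfp352, Sp110, Tmem92, Gm4340, Eif1ad7 and Gm6763 are 10 genes of the two-cell-like state, out of 22512 genes in the deposited table of mouse embryonic stem cell RNA-seq. They were chosen by name, with the differences between these same libraries already known, so their own values are given as a description with no test. All 10 names were found in the table. Total RNA was sequenced from 7 groups of 3 replicates, which the series describes as biological, in 2 experiments with 9 and 12 libraries.

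Every group came from mouse embryonic stem cells of the 129S6/SvEvTac background that carry the GFP_5xT71BS reporter and a stably integrated FLAG-Cas9 construct with blasticidin resistance, grown on gelatin in serum with LIF. Experiment 1 held the parental line (W), its Trim71-/- derivative (Trim71KO) and its Ago2-/- derivative (Ago2KO). In Experiment 2 the parental line was transfected with pCIP FH-T6B_WT::mCherry (T6B_WT) or with pCIP FH-T6B_MUT::mCherry (T6B_MUT), and the Trim71-/- and Ago2-/- lines were transfected with an empty plasmid (Trim71KO_empty and Ago2KO_empty). T6B_MUT was the control there, so genotype and plasmid differ together in both empty-plasmid comparisons and cannot be told apart. The labels do not say how many clones stand behind an edited line. The mRNA repressor TRIM71 binds RNA directly, AGO2 is an Argonaute protein that carries microRNAs, and T6B is a TNRC6B peptide that binds Argonaute and blocks microRNA-mediated silencing.

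A small and changing share of cells in an embryonic stem cell culture passes through a state in which genes of the mouse embryo at the two-cell stage are transcribed. The transcription factor DUX turns many of these genes on, together with endogenous retroviral promoters, and ZSCAN4 proteins, known for telomere maintenance, mark the state. Many genes of this set lie in recent tandem families, so that a short read often matches several copies. In bulk RNA such as this, fewer cells in the state and less RNA per cell in the state cannot be told apart.

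The upstream windows of 3 members on 3 chromosomes hold a common word, which is why these sequences are shown. RefSeq windows on GRCm38.p6, from 250 bases before to 50 after an annotated start, were found for 5 of the 10 members: Zscan4c, Usp17lc, Zfp352, Sp110 and Gm4340. Below, capitals in the windows of Sp110, Gm4340 and Zfp352 mark runs of at least 14 bases found in the window of another member on either strand. In the window of Zscan4c they mark TGATTCAAT, a 9-letter piece of the sequence that DUX is known to bind.
Zscan4c, chr7:11005495-11005794, plus strand: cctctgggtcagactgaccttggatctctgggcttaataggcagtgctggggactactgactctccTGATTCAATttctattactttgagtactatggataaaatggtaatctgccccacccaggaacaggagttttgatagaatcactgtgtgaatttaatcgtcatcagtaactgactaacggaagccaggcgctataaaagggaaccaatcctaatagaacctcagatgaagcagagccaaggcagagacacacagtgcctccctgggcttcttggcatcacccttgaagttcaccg
Zfp352, chr4:90218570-90218869, plus strand: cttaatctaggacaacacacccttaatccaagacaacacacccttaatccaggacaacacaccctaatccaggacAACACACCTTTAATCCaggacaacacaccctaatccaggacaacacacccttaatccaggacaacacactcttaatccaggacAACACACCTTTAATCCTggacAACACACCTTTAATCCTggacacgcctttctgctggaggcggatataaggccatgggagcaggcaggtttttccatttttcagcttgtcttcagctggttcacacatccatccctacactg
Sp110, chr1:85603842-85604141, minus strand: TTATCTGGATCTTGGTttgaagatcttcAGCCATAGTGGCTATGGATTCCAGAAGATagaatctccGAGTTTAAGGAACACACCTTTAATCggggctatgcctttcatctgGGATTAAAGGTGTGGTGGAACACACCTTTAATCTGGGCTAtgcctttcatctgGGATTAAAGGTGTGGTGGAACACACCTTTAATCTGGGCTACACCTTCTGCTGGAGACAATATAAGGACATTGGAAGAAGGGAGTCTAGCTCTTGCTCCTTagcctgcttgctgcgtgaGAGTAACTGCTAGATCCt
Gm4340, chr10:104193792-104194091, plus strand: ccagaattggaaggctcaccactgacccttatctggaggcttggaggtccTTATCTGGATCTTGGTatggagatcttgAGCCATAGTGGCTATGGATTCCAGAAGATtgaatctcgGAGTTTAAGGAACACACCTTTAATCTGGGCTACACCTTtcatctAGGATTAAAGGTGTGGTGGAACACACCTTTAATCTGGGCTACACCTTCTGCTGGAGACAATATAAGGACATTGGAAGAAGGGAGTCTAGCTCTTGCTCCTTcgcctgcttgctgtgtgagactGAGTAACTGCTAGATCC
Sp110 and Gm4340 shared an unbroken run of 100 bases in these windows. This Sp110 start lies 5074 bases upstream of the start in GENCODE M21, and the window of the other RefSeq start of Sp110, chr1:85598761-85599060, shared no run of more than 10 bases with another member. The longest word common to Zfp352, Sp110 and Gm4340 had 15 letters, AACACACCTTTAATC, present 3 times in the Zfp352 window, 3 times in the Sp110 window and 2 times in the Gm4340 window, counting both strands. It was found in 23 of 32851 RefSeq windows of the same length (0.07%), which belong to 22 genes, among them these 3 members and 5 copies of Gm4340. Of the other genes with the word, 2 were tested in Experiment 2: Eif4a3l1 was higher in T6B_WT than in T6B_MUT (log2 fold change 0.71, SE 0.10, edgeR adjusted p 7.15e-05), and Pemt gave 0.02 (SE 0.13, edgeR adjusted p 0.947). Both were named after their values were seen, and both words were chosen after the sequences were seen. TGATTCAAT was found in 37 of the 32851 windows (0.113%) on either strand. Outside the members and their copies, 9 genes with TGATTCAAT were tested in Experiment 2, and AF067061 and Gm21761 were the 2 of them called higher in T6B_WT, both on chromosome 13 near Tcstv3 and Tcstv1, against a background of 9.29% of all tested genes. A match describes the window and is no evidence of binding.

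Levels are given as CPM, the deposited raw counts divided by the library total and rescaled, with TMM, a normalization that equalizes the bulk of genes between libraries. A level with an error is a mean ± SD, n = 3, and a difference is given with its log2 fold change and standard error (SE) from edgeR's quasi-likelihood fit. The deposited library totals were 29.6 to 57.9 M counts. Checks of the labels bear on the values. Trim71 was lower but present in the Trim71-/- groups, at 429 ± 26.0 CPM in Trim71KO against 608 ± 9.26 in W, and at 402 ± 8.47 in Trim71KO_empty against 492 ± 10.8 in T6B_MUT. Ago2 stood at 41.9 ± 1.94 CPM in Ago2KO against 142 ± 9.62 in W. In the libraries labelled Ago2KO_empty, however, Ago2 was at 87.4, 167 and 45.6 CPM against 113, 143 and 112 in T6B_MUT, so that replicate 2 lay above all control libraries, and replicate 3 alone was near the level of Ago2KO. Values without replicate 2 are therefore given beside those of the whole group. None of 10 embryonic stem cell markers was at 0 in any group, and they summed to 4812 to 5050 CPM in W, 5852 to 6187 in Trim71KO and 5125 to 5242 in Ago2KO. In Experiment 2 they summed to 5065 to 5162 in T6B_MUT and 5104 to 5265 in T6B_WT. Their sums were 5957 to 6086 in Trim71KO_empty and 4970 to 5336 in the libraries labelled Ago2KO_empty. The sums of both Trim71-/- groups and of Ago2KO thus lay above their controls. At an edgeR adjusted p under 0.05, 6 of the 10 were higher and 1 lower in Trim71KO (16.9% and 15.6% of all tested genes). In Trim71KO_empty 5 were higher and 2 lower (14.4% and 13.4%). Dppa5a was lower in both Trim71-/- groups (log2 fold change −0.45, SE 0.05, and −0.63, SE 0.09). In Ago2KO 3 of the 10 were higher and 0 lower (10.2% and 7.78%), with 0 lower also at an unadjusted p under 0.05 in edgeR and in DESeq2.

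Across the 10 genes, both edited groups of Experiment 1 lay below their control. In Experiment 2, T6B_WT and the libraries labelled Ago2KO_empty lay above theirs, and Trim71KO_empty had no common direction. In Experiment 1 all 10 members had their 3 Trim71KO libraries below their 3 W libraries, while 21.6% of all tested genes did so. Also all 10 had their 3 Ago2KO libraries below W, beside 16.4% of all tested genes. In Experiment 2 all 10 had their 3 T6B_WT libraries above T6B_MUT (background 20.6%). All 10 also had the 3 libraries labelled Ago2KO_empty above T6B_MUT (background 22.0%), a count that leaving out replicate 2 could not lower. In Trim71KO_empty only Sp110 and Eif1ad7 lay wholly above T6B_MUT (background 22.9%) and only Tmem92 wholly below (background 22.5%), while the other 7 overlapped. These counts rest on the values by which the genes were chosen and carry no test. The comparisons within an experiment share their control libraries.

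**Figure D1:**
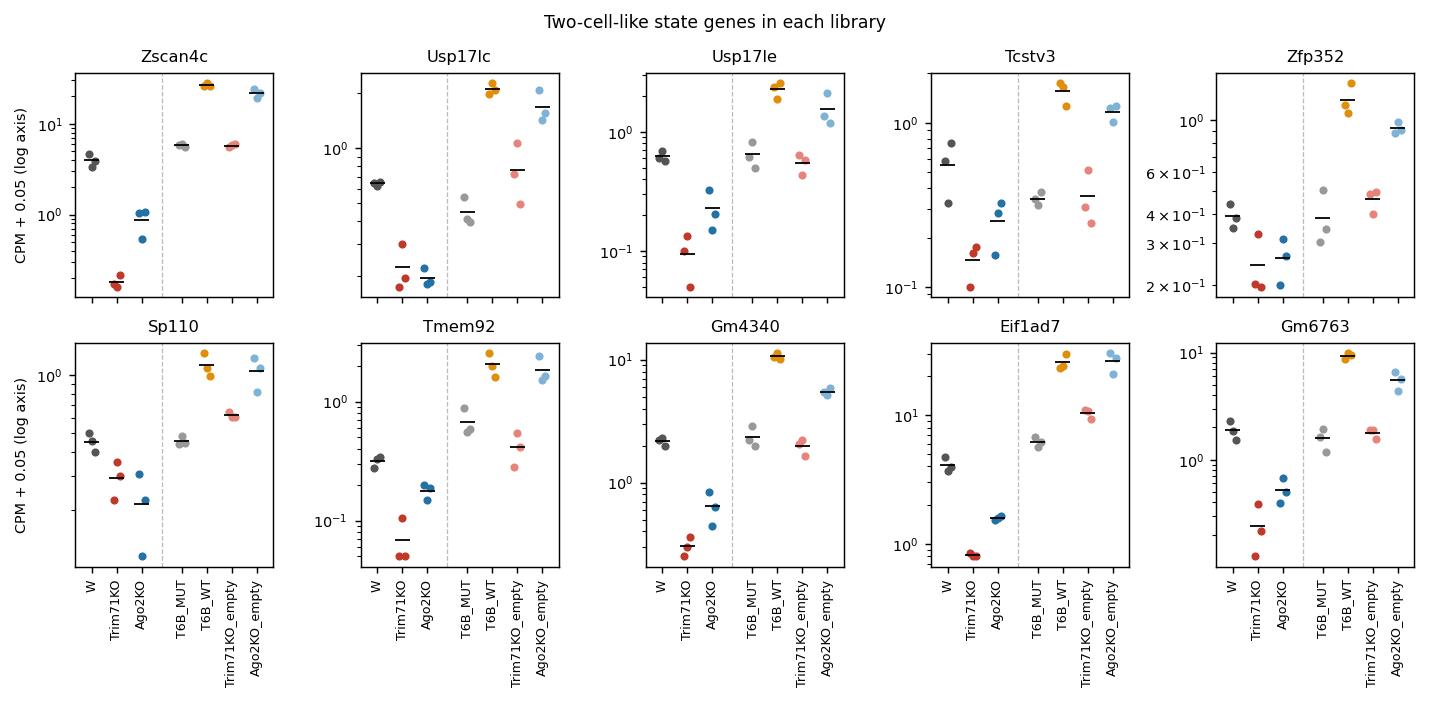
Level of each of the 10 genes in each of the 21 libraries, as CPM plus 0.05 on a log axis. Points are libraries, black bars are group means, and the dashed line separates Experiment 1 (left) from Experiment 2 (right); in every panel the Trim71KO and Ago2KO points lie below W, and the T6B_WT points and those labelled Ago2KO_empty lie above T6B_MUT.

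Summed over the 10 genes, the level was 13.4 to 16.4 CPM in W, 1.76 to 2.53 in Trim71KO and 3.96 to 4.75 in Ago2KO. In Experiment 2 it was at most 19.1 CPM in T6B_MUT, 78.8 to 85.1 in T6B_WT, 20.8 to 23.9 in Trim71KO_empty and 56.9 to 75.3 in the libraries labelled Ago2KO_empty (68.4 to 75.3 without replicate 2). The Trim71KO_empty sum includes Eif1ad7 at 10.3 ± 0.927 CPM, against 6.16 ± 0.595 in T6B_MUT. Of the 10 members, 6 had positive and 4 negative log2 fold changes in Trim71KO_empty. The experiments were scaled separately, so levels are compared within each. The median log2 fold change of the 10 genes was −2.71 in Trim71KO and −1.50 in Ago2KO against W. Against T6B_MUT it was 2.13 in T6B_WT, 0.11 in Trim71KO_empty and 1.70 in the libraries labelled Ago2KO_empty (1.81 without replicate 2). The medians over all tested genes in these 5 comparisons were −0.001, −0.003, 0.007, 0.003 and 0.027.

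Zscan4c (ENSMUSG00000054272, chromosome 7, 11005745 to 11010547, plus strand, GRCm38) encodes a zinc finger and SCAN domain protein of the telomere-maintaining ZSCAN4 family and had the widest range of the 10. It was at 4.56, 3.30 and 3.83 CPM in W, at 0.125, 0.111 and 0.166 in Trim71KO, and at 0.985, 0.495 and 1.02 in Ago2KO. The 3 groups did not overlap, and only 17 reads in all stood behind the Trim71KO level, against 560 in W. In Experiment 2 it was at 5.75, 5.95 and 5.44 CPM in T6B_MUT and at 5.45, 5.75 and 5.89 in Trim71KO_empty, which overlapped. Zscan4c in T6B_WT held 25.7, 27.7 and 26.2 CPM, and the libraries labelled Ago2KO_empty held 24.0, 19.1 and 21.8. Both lay above the control, and each T6B_WT library lay above each library labelled Ago2KO_empty. The log2 fold changes of Zscan4c were −4.80 (SE 0.29) in Trim71KO, −2.16 (SE 0.20) in Ago2KO, 2.22 (SE 0.09) in T6B_WT, −0.00 (SE 0.10) in Trim71KO_empty and 1.92 (SE 0.09) in the libraries labelled Ago2KO_empty.

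Of its 50-base words, 85.5% occur in another gene, so the 9 rows of the Zscan4 family in the table, all on chromosome 7, were also summed. The sum was 25.3 ± 1.07 CPM in W, 1.62 ± 0.502 in Trim71KO and 5.31 ± 1.08 in Ago2KO, a 15.7-fold and a 4.77-fold lower level. It was 36.5 ± 3.61 CPM in T6B_MUT, 169 ± 2.09 in T6B_WT, 33.0 ± 0.519 in Trim71KO_empty and 137 ± 10.9 in the libraries labelled Ago2KO_empty, which is 1.90 above T6B_MUT on the log2 scale and 1.97 without replicate 2. Zscan4c held 15.8% of the family's summed counts, the most of any row, and each of the 8 other rows moved as it did in Trim71KO, Ago2KO, T6B_WT and the libraries labelled Ago2KO_empty. In Trim71KO_empty the libraries of the sum lay below those of T6B_MUT, by 1.11-fold, where Zscan4c alone overlapped.

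Usp17lc (ENSMUSG00000058976, chromosome 7, 103415072 to 103419880) and Usp17le (ENSMUSG00000043073, chromosome 7, 104768049 to 104777470) encode deubiquitinating enzymes of the USP17-like family. Usp17lc stood at 0.599, 0.574 and 0.603 CPM in W, at 0.125, 0.250 and 0.146 in Trim71KO and at 0.171, 0.132 and 0.137 in Ago2KO. It is 1 of 2 members, with Sp110, whose Ago2KO mean was below the Trim71KO mean, but these groups overlapped. In Experiment 2, Usp17lc was at 0.491, 0.360 and 0.346 CPM in T6B_MUT, at 1.94, 2.21 and 2.03 in T6B_WT, at 0.669, 1.02 and 0.446 in Trim71KO_empty and at 2.04, 1.37 and 1.51 in the libraries labelled Ago2KO_empty. Trim71KO_empty spread widely and overlapped the control (log2 fold change 0.82, SE 0.30). Usp17le was at 0.572 ± 0.0605 CPM in W and at 0.0445 ± 0.0420 in Trim71KO, where 5 reads were counted in all and 1 library held none. Without Trim71KO replicate 2 its log2 fold change went from −3.73 to −4.49, and without replicate 3 to −3.06. In T6B_WT it was at 2.22 ± 0.349 CPM against 0.596 ± 0.160 in T6B_MUT.

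Since 44.7% of the 50-base words of Usp17lc and 29.8% of those of Usp17le occur elsewhere, the 5 rows of the family were summed too. The sum was 2.49 ± 0.157 CPM in W against 0.621 ± 0.204 in Trim71KO and 0.653 ± 0.171 in Ago2KO, which overlapped each other. It was 2.03 ± 0.271 in T6B_MUT, 10.9 ± 0.323 in T6B_WT, 3.01 ± 1.10 in Trim71KO_empty and 6.74 ± 1.07 in the libraries labelled Ago2KO_empty (1.73 above T6B_MUT on the log2 scale and 1.67 without replicate 2). Usp17lb, a copy and not a member, held 33.0% of it, the largest share. Usp17lc also overlaps Gm25774 on its own strand, and its reads cannot be assigned with certainty.

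Tcstv3 (ENSMUSG00000095821, chromosome 13, 120316878 to 120318178, plus strand) belongs to the two-cell-stage variable group. It was at 0.537, 0.277 and 0.707 CPM in W, the widest relative spread of any member there. Trim71KO held 0.0502, 0.111 and 0.125 CPM and Ago2KO 0.107, 0.231 and 0.273, and both lay below W and overlapped each other. In Experiment 2 Tcstv3 went from 0.296 ± 0.0327 CPM in T6B_MUT to 1.51 ± 0.250 in T6B_WT and 1.12 ± 0.141 in the libraries labelled Ago2KO_empty, with 0.307 ± 0.142 in Trim71KO_empty. Of the 50-base words of Tcstv3, 31.4% occur in 9 other genes, and Gm21818 holds the most (19.0%). Its sum with Tcstv1, which leaves out Gm21818, was 6.14-fold lower in Trim71KO and 2.69-fold lower in Ago2KO, and 4.46-fold higher in T6B_WT. In the libraries labelled Ago2KO_empty that sum was 2.84-fold higher than in T6B_MUT, and without replicate 2 it was 1.61 higher on the log2 scale.

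Zfp352 (ENSMUSG00000070902, chromosome 4, 90218820 to 90225702, plus strand), a zinc finger gene transcribed in two-cell embryos, shares only 7.09% of its 50-base words with other genes. Its distance from the control was small in Experiment 1, with 0.392, 0.298 and 0.333 CPM in W against 0.151, 0.278 and 0.146 in Trim71KO and 0.150, 0.264 and 0.215 in Ago2KO. The highest library of each edited group came close to the lowest of W. T6B_WT stood further apart, at 1.11, 1.02 and 1.38 CPM against 0.255, 0.456 and 0.294 in T6B_MUT. Zfp352 in the libraries labelled Ago2KO_empty was at 0.874 ± 0.0505 CPM, below each T6B_WT library.

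Sp110 (ENSMUSG00000070034, chromosome 1, 85576899 to 85598817, minus strand) encodes a nuclear body protein that is known as interferon-inducible, and it overlaps G530012D18Rik on the opposite strand. Of its 50-base words 42.3% occur in 136 other genes, 26.7% in Gm16026, so its reads may be shared. Per length it was the lowest of the members, at 0.0604 ± 0.00735 RPKM in W. Its libraries were at 0.454, 0.404 and 0.353 CPM in W, at 0.176, 0.306 and 0.250 in Trim71KO, and at 0.257, 0.0660 and 0.176 in Ago2KO. In Experiment 2 it was at 0.393, 0.432 and 0.398 CPM in T6B_MUT and 1.25, 1.04 and 0.936 in T6B_WT. Sp110 was 1 of the 2 members with all Trim71KO_empty libraries above the control, at 0.592, 0.555 and 0.558 CPM (log2 fold change 0.48, SE 0.26). The libraries labelled Ago2KO_empty held 1.18, 0.766 and 1.04 CPM.

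Tmem92 (ENSMUSG00000075610, chromosome 11, 94777217 to 94782703, minus strand) encodes a transmembrane protein and has the most distinct sequence of the 10, with 1.93% of its 50-base words shared. It was close to 0 in Trim71KO, at 0, 0.0556 and 0 CPM, which is 2 reads against 38 in W. This is 6.13% of the W rate, with a 95% exact interval of 0.716% to 23.7% that covers counting error only. Without Trim71KO replicate 2 no read remained and no fold can be given, and without replicate 3 the log2 fold change was −3.19 in place of −3.81. Ago2KO held 0.129 ± 0.0264 CPM against 0.265 ± 0.0335 in W. Tmem92 was at 0.824, 0.503 and 0.537 CPM in T6B_MUT, at 2.51, 1.92 and 1.56 in T6B_WT and at 2.35, 1.48 and 1.58 in the libraries labelled Ago2KO_empty. It was the 1 member with all Trim71KO_empty libraries below the control, at 0.231, 0.496 and 0.363 CPM (log2 fold change −0.79, SE 0.34), although the highest of them nearly reached the lowest control library.

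Gm4340 (ENSMUSG00000090854, chromosome 10, 104194042 to 104196522) and Gm6763 (ENSMUSG00000097427, chromosome 10, 104151497 to 104153965) lie in 1 plus-strand cluster of near-identical genes. Other genes contain 98.9% and 100% of their 50-base words, and Gm6763 overlaps Gm21293 on the same strand, so only the sum over the 7 rows of the cluster is read here. The sum was 14.4 ± 0.351 CPM in W, 0.904, 1.75 and 2.16 in Trim71KO and 3.88, 4.06 and 4.10 in Ago2KO, with no overlap between the groups. In Experiment 2 it was 13.8, 17.9 and 11.6 CPM in T6B_MUT and 12.7 ± 1.35 in Trim71KO_empty, which overlapped. T6B_WT held 69.8, 78.8 and 70.6 CPM and the libraries labelled Ago2KO_empty 40.9, 34.6 and 41.6, a 5.06-fold and a 2.71-fold higher level than the control. The latter is 1.44 on the log2 scale, and 1.52 without replicate 2. Taken as single rows, Gm4340 was at 2.12 ± 0.152 CPM in W and 10.6 ± 0.652 in T6B_WT, and Gm6763 at 1.84 ± 0.378 and 9.33 ± 0.597. Without Trim71KO replicate 2 the log2 fold change of Gm6763 in Trim71KO moved from −3.28 to −3.85.

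Eif1ad7 (ENSMUSG00000079029, chromosome 12, 88270640 to 88274500, minus strand, named Gm5662 in GENCODE M21) belongs to a large family related to a translation initiation factor, EIF1A. It was the most abundant member per length, at 2.24 ± 0.290 RPKM in W. Its libraries were at 4.67, 3.62 and 3.91 CPM in W, at 0.803, 0.750 and 0.749 in Trim71KO and at 1.48, 1.55 and 1.60 in Ago2KO, 3 groups without overlap. In Experiment 2 the 3 other groups lay above the control of 6.75, 5.56 and 6.17 CPM. Trim71KO_empty was at 10.9, 10.8 and 9.24 CPM (log2 fold change 0.74, SE 0.14), T6B_WT at 23.2, 23.9 and 29.8, and the libraries labelled Ago2KO_empty at 30.4, 20.9 and 27.8. With Sp110, Eif1ad7 was thus 1 of the 2 members whose Trim71-/- groups lay wholly on opposite sides of their controls. The sum over the 13 rows of its family gave 29.5 ± 3.67 CPM in W, 12.7 ± 0.835 in Trim71KO and 16.3 ± 1.77 in Ago2KO. It gave 41.3 ± 1.58 in T6B_MUT, 139 ± 14.6 in T6B_WT, 60.6 ± 5.34 in Trim71KO_empty and 136 ± 20.4 in the libraries labelled Ago2KO_empty (1.72 above T6B_MUT on the log2 scale and 1.84 without replicate 2). The log2 difference between Trim71KO and W was −1.22 for the family sum and −2.40 (SE 0.15) for Eif1ad7 itself, and 77.9% of the 50-base words of Eif1ad7 occur in other genes.

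**Figure D2:**
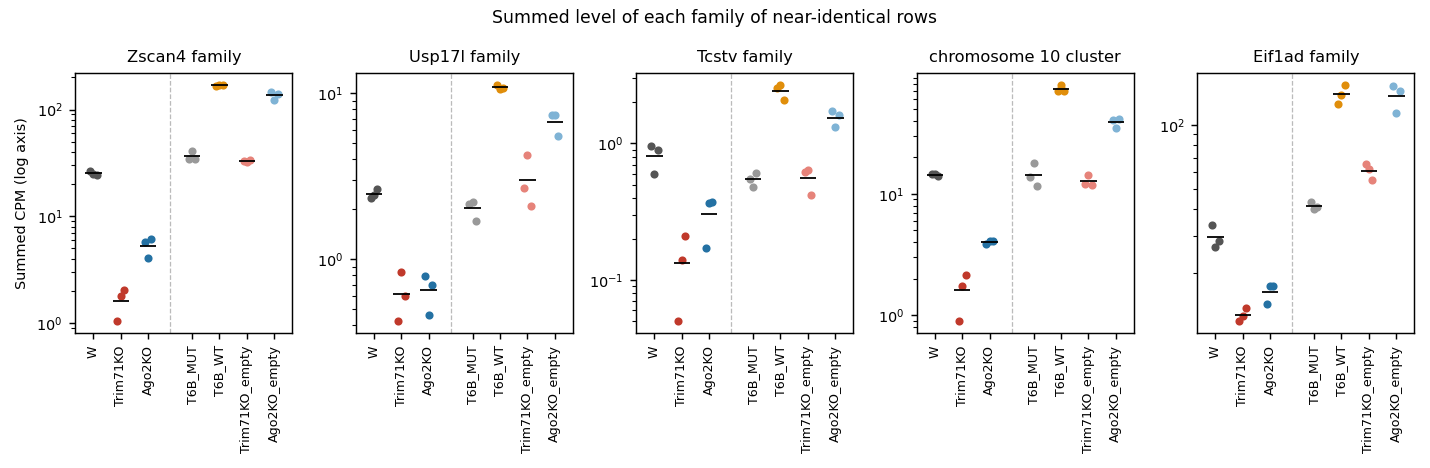
Summed CPM (log axis) of the 5 families of near-identical rows that contain members, in each of the 21 libraries. Points are libraries, bars are means and the dashed line separates the experiments; the Zscan4 sum spans 1.62 CPM in Trim71KO to 169 in T6B_WT, and the Eif1ad sum has the narrowest range.

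Ordered by the deposited RPKM, which divide by gene length, the members in W ran from Eif1ad7 (2.24), Zscan4c (1.73), Gm4340 (1.65) and Gm6763 (1.44) through Tcstv3 (0.659), Usp17le (0.292) and Usp17lc (0.245) to Zfp352 (0.152), Tmem92 (0.123) and Sp110 (0.0604). In T6B_WT the highest were Eif1ad7 at 13.7 ± 1.87, Zscan4c at 11.5 ± 0.484 and Gm4340 at 8.02 ± 0.519 RPKM, and Sp110 was again the lowest at 0.156 ± 0.0240. Among the groups of Experiment 1, W was highest for all 10 genes. Ago2KO came next for 8 of them, and for 6 of these 8 (Zscan4c, Usp17le, Tmem92, Gm4340, Eif1ad7 and Gm6763) its libraries lay wholly above those of Trim71KO, as did 22.1% of all tested genes. For Tcstv3, Zfp352, Usp17lc and Sp110 the Ago2KO and Trim71KO libraries overlapped.

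In Experiment 2, T6B_WT had the highest mean for 9 members and the libraries labelled Ago2KO_empty for Eif1ad7. For Zscan4c, Tcstv3, Zfp352, Gm4340 and Gm6763 the T6B_WT libraries lay wholly above those labelled Ago2KO_empty, and for the other 5 they overlapped. All 10 members had their Trim71KO_empty libraries below the libraries labelled Ago2KO_empty, with a median log2 fold change of −1.53, while 20.6% of all tested genes separated in this way. Without replicate 2, which could not undo this separation, the median was −1.51. Against T6B_MUT the members' log2 fold changes without replicate 2 ran from 1.04 for Usp17le to 2.22 for Eif1ad7. Their sign, too, could not change, since no library labelled Ago2KO_empty overlapped the control. Pairs of members were correlated over the 21 libraries with Pearson r between 0.62 and 0.95 (median 0.86, 45 pairs, log2 CPM less the mean of each experiment). In Experiment 1 alone the range was 0.37 to 0.98 and in Experiment 2 alone 0.78 to 0.98. These pairs share libraries and, in part, reads.

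**Figure D3:**
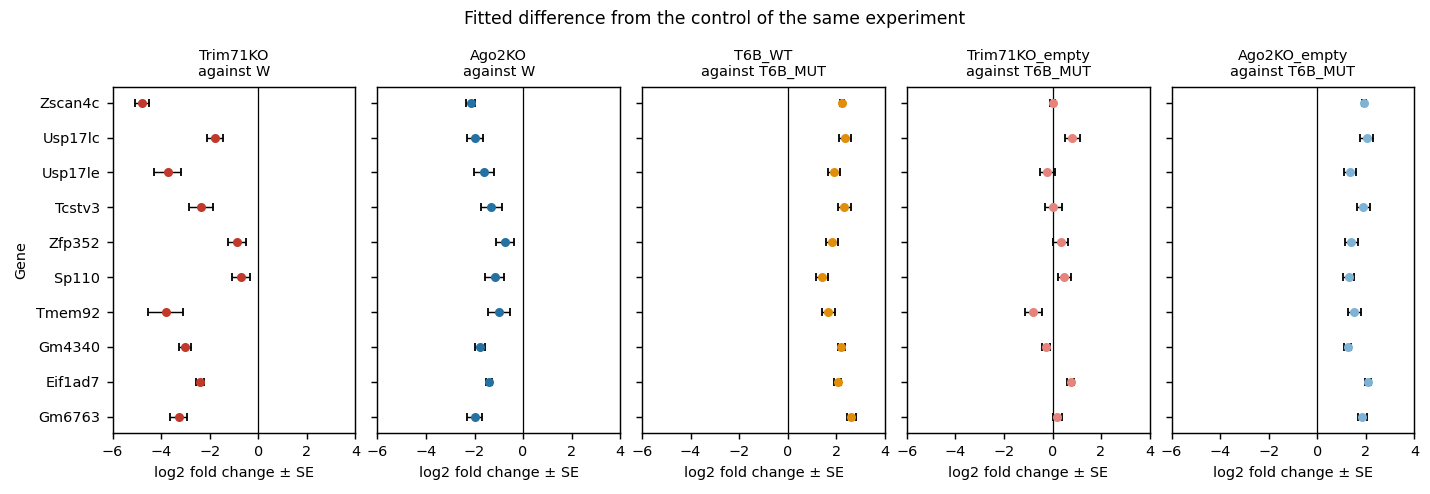
Log2 fold change of each member against the control of its own experiment, with standard errors from edgeR's fit. Points lie left of zero in Trim71KO and Ago2KO and right of zero in T6B_WT and the group labelled Ago2KO_empty, while Trim71KO_empty points scatter around zero from −0.79 (Tmem92) to 0.82 (Usp17lc).

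Other genes known from the two-cell stage were tested, since the members could not be. Their list, too, was written from general knowledge with earlier results of these data known, so the counts are no independent check. From 73 such names outside the members' families, 47 were in the table. AF067061, Gm20767, Gm21761 and Gm21818 nevertheless lie on chromosome 13 within 1 Mb of Tcstv3 or Tcstv1, and counts without these 4 are also given. Of these, 32 passed the filter on low counts in Experiment 1 and 46 in Experiment 2, and a gene that passed only through the groups where it is high had to differ, so the counts describe the tested genes alone. The list includes recent families (Pramel, Tdpoz, Trim43) whose rows may share reads, and Gm21818 shares sequence with Tcstv3. Genes were called at an edgeR adjusted p under 0.05.

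In Trim71KO against W, 21 of the 32 were lower (background 15.6%) and 3 higher (background 16.9%), with a median log2 fold change of −1.08. Without the 4 genes near Tcstv3 and Tcstv1, 17 of 28 were lower and 3 higher. The largest decreases were those of Pramel19, Pramel20 and AF067061. Pramel19 had 3 reads in Trim71KO against 56 in W, or 6.23% of the W rate (95% exact interval 1.25% to 19.2%, edgeR adjusted p 4.88e-04). Pramel20 likewise had 3 against 38, or 9.19% (1.81% to 29.0%, edgeR adjusted p 0.00186). AF067061 had 8 reads against 78 (log2 fold change −3.03, SE 0.48, edgeR adjusted p 2.01e-04). The 3 higher genes were Pramel6 (1.49, SE 0.40), the germ cell RNA-binding gene Dazl (0.83, SE 0.10) and Ddit4l (0.38, SE 0.13), with edgeR adjusted p of 0.00967, 5.22e-05 and 0.0385.

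In Ago2KO against W the list split: 8 of 32 were lower (background 7.78%) and 5 higher (background 10.2%), and the median was −0.15, beside −1.50 for the members. DESeq2 called 5 higher and 4 lower. Without the 4 genes near Tcstv3 and Tcstv1, edgeR called 4 of 28 lower and 5 higher. Pramel20 (4 reads against 38, −2.98, SE 0.65), Nxf7 of the RNA export factor family (−2.18, SE 0.25) and Gm20767 (−1.71, SE 0.34) were the largest decreases, with edgeR adjusted p of 0.00493, 3.08e-05 and 0.00284. Pramel6 (1.29, SE 0.40), the autophagy receptor gene Calcoco2 (0.85, SE 0.06) and Ddit4l (0.61, SE 0.13) were the largest increases, with edgeR adjusted p of 0.0389, 2.78e-07 and 0.00426. Calcoco2 is abundant and was lower in Trim71KO, at 14.8 ± 1.03 CPM, and higher in Ago2KO, at 58.1 ± 2.08, than the 32.2 ± 0.530 of W. Trim71KO set directly against Ago2KO had 11 of 32 lower (background 17.1%) and 1 higher, Dazl (background 17.1%).

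In T6B_WT against T6B_MUT, 32 of 46 were higher (background 9.29%) and 0 lower (background 6.69%), with a median log2 fold change of 1.69. No gene was lower at an unadjusted p under 0.05 in edgeR either, and DESeq2 called 30 higher and 0 lower. Without the 4 genes near Tcstv3 and Tcstv1, 28 of 42 were higher in edgeR, with a median of 1.12. Some of the 46 genes passed the filter in Experiment 2 alone, so the median is not of the same genes as in Experiment 1. Of the 31 genes tested in each experiment, 18 were higher (background 8.90%) and 0 lower, with a median of 0.79. Spopfm2 (3.83, SE 0.63), the TRAF and POZ domain gene Tdpoz4 (3.13, SE 0.42) and Pramel37 (2.85, SE 0.63) rose most, with edgeR adjusted p of 3.50e-04, 4.22e-05 and 0.00411. Spopfm2 was at 0.516, 0.699 and 0.312 CPM in T6B_WT and at 0.0393, 0.0479 and 0.0173 in T6B_MUT, where only 5 reads were counted in all.

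For the libraries labelled Ago2KO_empty against T6B_MUT, again 32 of 46 were higher (background 16.4%) and 0 lower (background 12.4%), and the median was 1.35. At an unadjusted p under 0.05 edgeR gave 0 lower, and DESeq2 called 31 higher and 0 lower. Without replicate 2, edgeR called 30 higher and 0 lower. Of the 31 genes tested in each experiment, 22 were higher in the whole group (background 15.9%) and 0 lower, with a median of 0.92. Spz1 (3.08, SE 0.64) and Tdpoz4 (2.92, SE 0.43) rose most, with edgeR adjusted p of 0.00167 and 7.29e-05, and without replicate 2 they gave 3.12 (SE 0.70) and 3.04 (SE 0.45). Tdpoz4 was at 0.662, 0.547 and 0.831 CPM there and at 0.118, 0.144 and 0.0173 in T6B_MUT.

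In Trim71KO_empty against T6B_MUT the list, like the members, had no common direction. Of 46 genes, 7 were higher (background 14.4%) and 6 lower (background 13.4%), and the median was 0.06. Tdpoz4 (2.27, SE 0.46), Dazl (2.23, SE 0.10) and Pramel6 (1.87, SE 0.31) rose most, with edgeR adjusted p of 0.00117, 8.60e-11 and 1.76e-04. The largest decreases were those of Nxf7 (−1.15, SE 0.23), the heat shock gene Hspa1b (−0.66, SE 0.18) and Calcoco2 (−0.64, SE 0.08), with edgeR adjusted p of 9.57e-04, 0.0167 and 5.32e-06. Against the libraries labelled Ago2KO_empty, 28 of 46 were lower in Trim71KO_empty (background 16.9%) and 1, Dazl, higher (background 14.7%), and without replicate 2 of the latter 26 were lower.

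**Figure D4:**
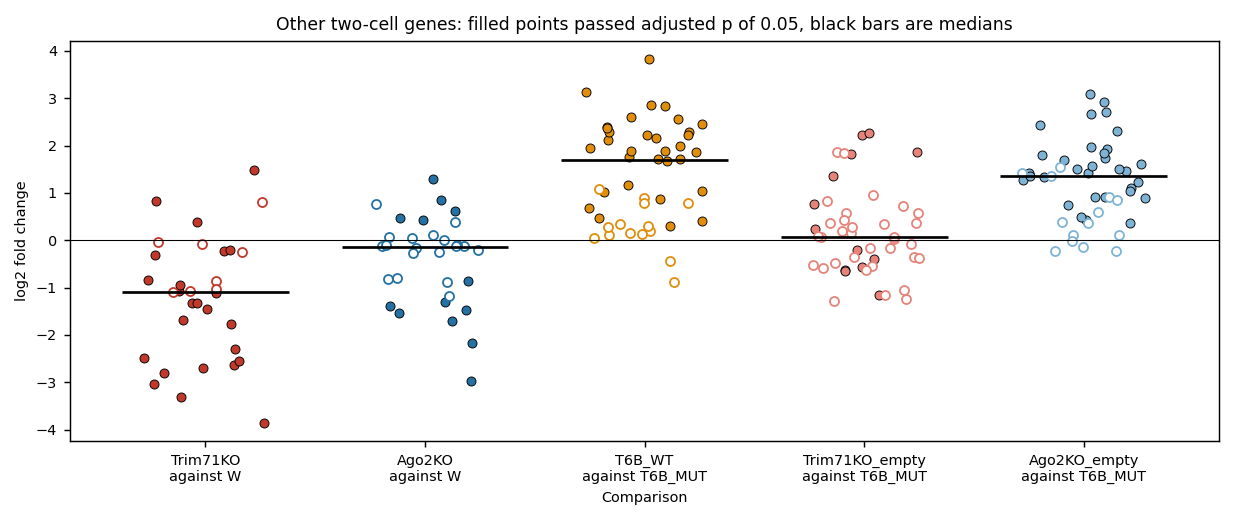
Log2 fold change of the other two-cell genes in 5 comparisons with a control. Each point is a gene, filled where edgeR's adjusted p was under 0.05, with horizontal scatter for display only; black bars are medians, −1.08 and −0.15 in Trim71KO and Ago2KO and 1.69, 0.06 and 1.35 in T6B_WT, Trim71KO_empty and the group labelled Ago2KO_empty. More genes were tested in Experiment 2, and over the 31 tested in each experiment the medians are −1.09, −0.17, 0.79, 0.06 and 0.92, in the same order.

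Whether groups with the same genotype label gave different changes in both experiments was tested on these 47 genes in 1 fit of all 21 libraries. For Trim71 the Experiment 2 difference minus the Experiment 1 difference was positive and called for 22 of 47 (background 5.04%) and negative for 0 (background 5.01%). For Ago2 it was positive and called for 21 (background 1.46%) and negative for 0 (background 0.669%). No gene was negative at an unadjusted p under 0.05 in edgeR in either test, and DESeq2 called 18 and 22 positive and 0 negative. Genes too low to test in Experiment 1 entered this fit through Experiment 2, so the 31 that were tested in each experiment are also given. Of these, 19 were positive for Trim71 (5.21% of all genes tested in each experiment) and 17 for Ago2 (1.32%). Among the members, with no test, these differences ran from 1.19 for Zfp352 to 4.80 for Zscan4c for Trim71 (median 2.89) and from 2.12 for Zfp352 to 4.07 for Zscan4c for Ago2 (median 3.11). The experiments also differ in transfection, in the control group and, for Ago2, in the level of the edited gene, and which of these goes with the difference cannot be told apart. Without replicate 2 of the libraries labelled Ago2KO_empty the Ago2 count stayed at 21.

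Of the known activators of the state, 10 were in the table. Duxf3, which encodes DUX, was at 0.565, 0.384 and 0.546 CPM in T6B_WT against 0.0981, 0.0959 and 0.104 in T6B_MUT, which is 2.28 on the log2 scale (SE 0.42, edgeR adjusted p 8.63e-04). In the libraries labelled Ago2KO_empty it was at 0.221, 0.246 and 0.416 (1.53, SE 0.46, edgeR adjusted p 0.0179, and 1.62, SE 0.51, without replicate 2). In Trim71KO_empty Duxf3 was at 0.0905 ± 0.0562 CPM and overlapped the control. Duxf3 passed the filter on low counts in Experiment 2 through the T6B_WT libraries, where it is high. A difference was thus built into its selection, and its adjusted p values are no independent check. It is among the activators counted below as higher in T6B_WT and in the libraries labelled Ago2KO_empty. Experiment 1 held too few Duxf3 reads to test, 10 in W, 6 in Ago2KO and 0 in Trim71KO. Gata2 also rose in T6B_WT (1.15, SE 0.38, edgeR adjusted p 0.0443). Tbx3 rose in both Trim71-/- groups (0.39, SE 0.07, and 0.54, SE 0.15), and Smarca5, a chromatin remodeller, in Trim71KO (0.47, SE 0.07), with edgeR adjusted p of 7.45e-04, 0.0239 and 2.92e-04. Dppa2, which acts upstream of DUX, fell in Trim71KO (−0.56, SE 0.05) and Trim71KO_empty (−0.58, SE 0.08) and rose by 0.17 to 0.26 in Ago2KO, T6B_WT and the libraries labelled Ago2KO_empty. All these Dppa2 changes passed edgeR's adjusted threshold, with adjusted p from 1.55e-06 to 0.0356, and without replicate 2 the libraries labelled Ago2KO_empty gave 0.25 (edgeR adjusted p 0.0428). Nr5a2 rose in both Trim71-/- groups (0.73, SE 0.05, and 0.73, SE 0.06) and fell in T6B_WT (−0.22, SE 0.06) and the libraries labelled Ago2KO_empty (−0.28, SE 0.06, and −0.32 without replicate 2), with edgeR adjusted p no larger than 0.0127.

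In counts, 4 of 9 tested activators were higher and 2 lower in Trim71KO, 1 higher and 1 lower in Ago2KO, and of 10 in Experiment 2, 3 higher and 2 lower in T6B_WT. In Trim71KO_empty 2 were higher and 2 lower, and in the libraries labelled Ago2KO_empty 2 higher and 1 lower, also without replicate 2. For these lists as for those that follow, the shares of all tested genes called higher and lower were 16.9% and 15.6% in Trim71KO and 10.2% and 7.78% in Ago2KO. They were 9.29% and 6.69% in T6B_WT, 14.4% and 13.4% in Trim71KO_empty, and 16.4% and 12.4% in the libraries labelled Ago2KO_empty. Of 28 genes known to repress the state, 6 were higher and 7 lower in Trim71KO and 1 higher and 5 lower in Ago2KO. In Experiment 2, 0 were higher and 2 lower in T6B_WT (1 higher and 4 lower at an unadjusted p under 0.05 in edgeR, 1 and 2 called by DESeq2), 3 higher and 7 lower in Trim71KO_empty, and 2 higher and 5 lower in the libraries labelled Ago2KO_empty (1 and 7 without replicate 2). Lin28a, an RNA-binding protein gene, was the 1 gene of the list lower in all 5 comparisons, by 0.58 (SE 0.04) in Trim71KO, by 0.18 (SE 0.04) in Ago2KO and by 0.35 (SE 0.08) in T6B_WT. Trim71KO_empty gave −0.87 (SE 0.08) for Lin28a and the libraries labelled Ago2KO_empty −0.42 (SE 0.08, and −0.44 without replicate 2), and the edgeR adjusted p was at most 0.0111. Lin28a was thus lower both where the members were low and where they were high. Myc, a growth-promoting transcription factor, fell in T6B_WT (−0.68, SE 0.12, edgeR adjusted p 6.74e-04) and Trim71KO (−0.57, SE 0.10, edgeR adjusted p 0.00109), and also in Ago2KO (−0.51, SE 0.10, edgeR adjusted p 0.00447) and Trim71KO_empty (−0.49, SE 0.12, edgeR adjusted p 0.00481).

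Because Sp110 is interferon-inducible, 13 interferon-induced genes in the table were set beside it. In Trim71KO 5 of 12 were higher and 3 lower, and in Ago2KO 3 higher and 1 lower. In Experiment 2, 3 of 11 were higher and 1 lower in T6B_WT, 3 higher and 2 lower in Trim71KO_empty, and 2 higher and 0 lower in the libraries labelled Ago2KO_empty (0 lower at an unadjusted p under 0.05 in edgeR and 0 called by DESeq2, but 3 higher and 1 lower without replicate 2). Sp140, a relative of Sp110 on the same list, fell in Trim71KO (−1.67, SE 0.55, edgeR adjusted p 0.0294), while Rsad2 (2.51, SE 0.47, edgeR adjusted p 8.51e-04) and Ifit2 (0.61, SE 0.14, edgeR adjusted p 0.00411) rose there.

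Markers of other cells also moved. The 7 primitive endoderm markers, among them Gata6 and Sox17, summed to 36.7 to 39.5 CPM in W, 6.07 to 6.16 in Trim71KO and 9.90 to 11.5 in Ago2KO, the same direction as the members. In Experiment 2 they summed to 25.3 to 26.0 CPM in T6B_MUT, 20.7 to 24.1 in T6B_WT, 10.1 to 12.2 in Trim71KO_empty and 16.4 to 22.9 in the libraries labelled Ago2KO_empty (16.4 to 18.3 without replicate 2), where no group exceeded the control while the members did. None of the 7 was at 0 in any group, and their part in the results was not tested. Beside backgrounds of 15.6% lower in Trim71KO, 7.78% in Ago2KO and 6.69% in T6B_WT, the counts called were 0 higher and 6 lower in Trim71KO, 0 and 7 in Ago2KO, 0 and 1 in T6B_WT, 1 and 5 in Trim71KO_empty and 0 and 3 in the libraries labelled Ago2KO_empty (0 and 5 without replicate 2). In the 4 comparisons with no increase called, edgeR gave 0 higher at an unadjusted p under 0.05 and DESeq2 called 0. The 5 trophoblast markers summed to 23.7 to 26.6 CPM in W, 16.5 to 18.5 in Trim71KO and 33.0 to 37.0 in Ago2KO. They summed to 16.9 to 17.4 in T6B_MUT, 22.1 to 22.2 in T6B_WT, 10.4 to 11.5 in Trim71KO_empty and 21.4 to 23.0 in the libraries labelled Ago2KO_empty (21.4 to 22.1 without replicate 2). Tfap2c dominates these sums, with 18365 reads over all libraries beside 359 for Krt7, the next highest. Of the 5 markers, 3 were called lower and 0 higher in Trim71KO, and 1, Tfap2c, higher and 0 lower in Ago2KO. Only 3 were tested in Experiment 2. Of these, 1 was higher in T6B_WT, 2 lower in Trim71KO_empty and 1 higher in the libraries labelled Ago2KO_empty, also without replicate 2. The 3 fibroblast markers in the table summed to 7.15 to 7.68 CPM in W against 10.5 to 11.6 in Trim71KO and 7.20 to 7.82 in Ago2KO. They summed to 4.04 to 4.68 in T6B_MUT against 2.73 to 3.43 in T6B_WT, 8.79 to 9.38 in Trim71KO_empty and 4.36 to 5.25 in the libraries labelled Ago2KO_empty. Thy1 dominates these sums, with 5043 reads over all libraries beside 735 for Col1a1 and 187 for Col1a2. In Trim71KO Thy1 rose (0.68, SE 0.09, edgeR adjusted p 4.60e-05) and Col1a1 fell (−0.64, SE 0.23, edgeR adjusted p 0.0477), a fall that DESeq2 did not call. Against T6B_MUT only Thy1 was called, higher in Trim71KO_empty (1.21, SE 0.11) and lower in T6B_WT (−0.67, SE 0.12). The 6 differentiation markers summed to 101 to 114 CPM in W, 122 to 150 in Trim71KO and 132 to 143 in Ago2KO. Their sum was 95.7 to 103 in T6B_MUT, 116 to 131 in T6B_WT, 89.8 to 104 in Trim71KO_empty and 101 to 108 in the libraries labelled Ago2KO_empty. Tubb3 dominates these sums, with 81348 reads over all libraries beside 9436 for Sox1, the next highest. Single markers called were 4 higher and 2 lower in Trim71KO, 4 and 0 in Ago2KO and 2 and 0 in T6B_WT. Trim71KO_empty had 2 and 2, and the libraries labelled Ago2KO_empty 2 and 1 (1 and 1 without replicate 2). Among the differentiation markers Neurod1, a neuronal transcription factor, rose in T6B_WT (1.53, SE 0.13, edgeR adjusted p 2.18e-07) and fell in Trim71KO (−0.99, SE 0.13, edgeR adjusted p 3.63e-05). It also rose in Ago2KO (1.05, SE 0.11, edgeR adjusted p 1.47e-05), where the members were low. Neurod1 rose in the libraries labelled Ago2KO_empty (1.36, SE 0.13, and 1.44 without replicate 2) and fell in Trim71KO_empty (−0.54, SE 0.15). T also fell in Trim71KO (−1.89, SE 0.44, edgeR adjusted p 0.00428), while Foxj1 rose most there (0.93, SE 0.19, edgeR adjusted p 0.00146). None of these markers was at 0 over a whole group, and their part in the results was not tested.

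**Figure D5:**
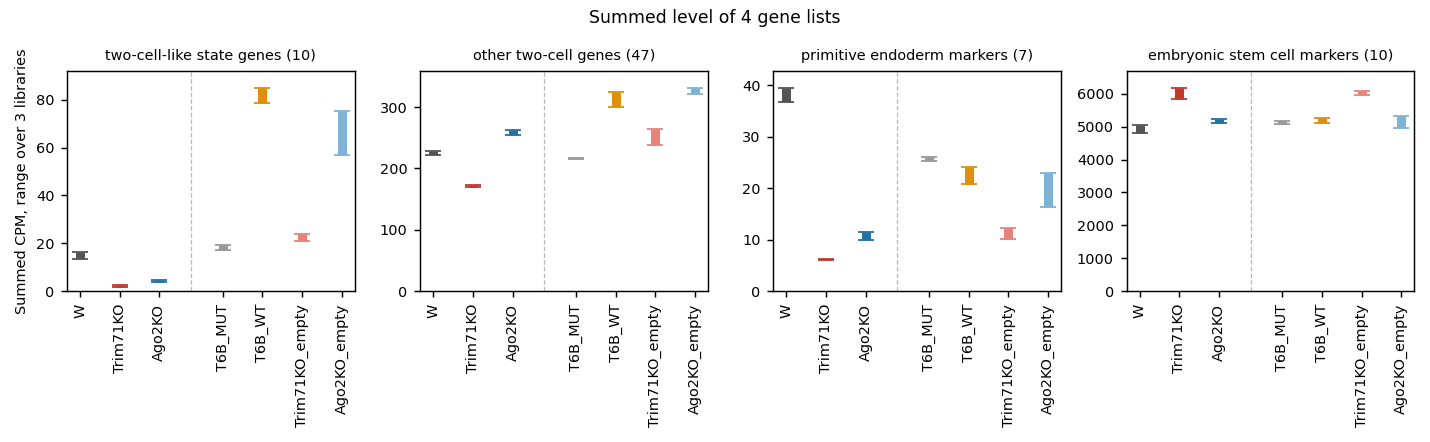
Summed CPM of the 10 members, the 47 other two-cell genes, 7 primitive endoderm markers and 10 embryonic stem cell markers, with linear axes from 0. Bars span the lowest to the highest of 3 libraries in each group and the dashed line separates the experiments; the sum over the other two-cell genes (170 to 332 CPM) has a narrower relative range than that of the members, and it includes abundant genes such as Calcoco2.

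The 5 genes outside all lists whose pattern was most like the members were found by Pearson correlation with the members' mean log2 CPM over the 21 libraries, among 16021 genes whose mean log2 CPM was not below 0, after subtracting the mean of each experiment. They were Gm21936 (r 0.919), Coch (0.893), Ccn2 (0.888), Tdpoz8 (0.869) and Nodal (0.866). Gm21936 went from 0.849 CPM in W to 0.298 in Trim71KO and 0.414 in Ago2KO, and from 0.975 in T6B_MUT to 4.43 in T6B_WT and 4.37 in the libraries labelled Ago2KO_empty. Nodal, a signalling ligand of the early embryo, had a narrower range, from 48.6 CPM in W to 24.7 in Trim71KO and from 43.4 in T6B_MUT to 58.4 in T6B_WT. With Spearman in place of Pearson, 3 of the 5 (Coch, Ccn2 and Nodal) stayed in the list. The points share libraries and depth, and the genes were picked for the likeness.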

How the data were processed

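RNA-seq of 21 libraries was analysed from 1 table. Per the file headers, the authors deposited raw read counts and RPKM for 22512 genes. Alignment used STAR 2.7.3a, and GRCm38/mm10 is named, per the submitters' processing notes; the counting program's treatment of strand and of reads with several matches is not given in the sources used here. The lowest row total was 17 counts, every row named a gene, and no per-sample column was left unused. Groups came from titles and treatment labels.

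Raw counts entered edgeR 4.0.16 in R 4.3.3 (TMM, filterByExpr with a minimum count of 10, robust quasi-likelihood test, Benjamini-Hochberg adjustment over all genes, threshold 0.05). The 9 and 12 libraries were fitted separately, and all 21 together for differences between experiments. RPKM served only to compare genes by level. The edgeR fit was checked on simulated data for Trim71KO against W and T6B_WT against T6B_MUT. Alternatives were RLE size factors, DESeq2 1.42.0, 2 other filters, a fold threshold, the 2 groups alone, a replicate block and each library left out.

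The members and all gene lists were written from general knowledge with earlier results of these data known. The lists held other two-cell genes, activators, repressors, interferon-induced genes, and embryonic stem cell, primitive endoderm, trophoblast, fibroblast and differentiation markers. Genes named from a list were those with the 3 largest called increases and decreases per comparison with a control, or examples of them, and the members, the edited genes and the 5 genes most like the members. Coordinates and overlaps are those of GENCODE M21, and shared 50-base words were counted in its transcripts. Of the table's IDs, 22480 were in GENCODE M21. Gm10264, on chromosome 12, was left out of the chromosome 10 sum. A result on 1 gene is not reported here.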

Additional observations from a re-analysis of the deposited data

Results flagged for a closer look

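The experiments differed for groups with the same genotype label. Members were not tested, and here every library of one experiment moved one way and every library of the other the opposite way. For the libraries labelled Ago2-/- this was so in all 10 members, with a difference of log2 fold changes (Experiment 2 minus Experiment 1) of 4.07 for Zscan4c, 4.0 for Usp17lc, 3.86 for Gm6763, 3.48 for Eif1ad7, 3.20 for Tcstv3, 3.02 for Gm4340, 2.94 for Usp17le, 2.51 for Tmem92, 2.45 for Sp110 and 2.12 for Zfp352. Ago2 itself was at 87.4, 167 and 45.6 CPM in the libraries labelled Ago2KO_empty and at 41.9 ± 1.94 in Ago2KO, and without replicate 2 of the former the median difference was 3.19 in place of 3.11. For Trim71-/- cells it was so in Sp110 (1.21) and Eif1ad7 (3.14), and the difference was not tested.

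Among the other two-cell genes the difference was tested in edgeR, and 22 of 47 were called for Trim71 and 21 for Ago2, all positive. For Trim71 the named genes called were Spz1 (6.87), Spopfm2 (5.06), Tdpoz4 (4.83), Pramel19 (3.28), Gm20767 (2.73), Pramel20 (2.68), AF067061 (2.66), Dazl (1.39), Nxf7 (1.14) and Calcoco2 (0.49). Spz1 had 0 reads in Trim71KO and Spopfm2 had 1, so those fitted values depend on the prior count and are no bounds. For Ago2 they were Pramel20 (4.56), Tdpoz4 (3.74), Gm20767 (3.11), Pramel19 (3.09), AF067061 (2.18), Nxf7 (1.94) and Dazl (0.94). Nxf7 was called lower in Ago2KO (−2.18, SE 0.25) and gave −0.23 (SE 0.21, edgeR adjusted p 0.434) in the libraries labelled Ago2KO_empty, so its positive difference is not an increase in Experiment 2. Likewise Calcoco2 and Nxf7 were called lower, and Dazl higher, in both Trim71-/- groups, so for these 3 genes the Trim71 difference is one of size. Among the 31 genes tested in each experiment, 19 and 17 were called. The experiments differ in transfection, control and, for Ago2, the level of the edited gene as well, and these cannot be told apart.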

How the results depend on the processing

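The number of other two-cell genes called stayed within 1.5 times its value under RLE size factors, no low-count filter, DESeq2 and the replicate block in all 9 comparisons, and with the 2 groups alone in the 7 where it applies. With genes kept only above 1 CPM in 3 libraries, fewer were tested (15 of them in Experiment 1 and 23 in Experiment 2), and 13 were called in Trim71KO against W, 7 in Ago2KO against W, 15 in T6B_WT against T6B_MUT, 17 in the libraries labelled Ago2KO_empty against T6B_MUT and 17 in Trim71KO_empty against the libraries labelled Ago2KO_empty. Where a change of 1 or more on the log2 scale was also required, counts were 8 in Ago2KO against W, 7 in Trim71KO against Ago2KO, 6 in Trim71KO_empty against T6B_MUT and 19 in Trim71KO_empty against the libraries labelled Ago2KO_empty. Leaving out each library gave 22 to 24 calls for Trim71KO, 9 to 11 for Ago2KO, 27 to 31 for T6B_WT, 9 to 13 for Trim71KO_empty, 25 to 30 for the libraries labelled Ago2KO_empty, 8 to 11 and 24 to 27 for the 2 comparisons between edited lines, and 18 to 21 and 17 to 23 for the differences between experiments (Trim71 and Ago2). Members' log2 fold changes moved by at most 0.02 with RLE and 0.11 without a prior count. With a library left out, 297 of 300 values stayed within 1 SD, here a value derived from the SE of the fit. Leaving out 1 of 3 libraries seldom moves a mean that far, so this count is a weak check. With 4 higher and 3 lower in Ago2KO above 1 CPM, and 5 and 4 by DESeq2, the split there differed from 5 and 8. Without the 4 genes near Tcstv3 and Tcstv1, chosen after seeing the data, calls went from 13 to 9 in Ago2KO and lower calls from 8 to 4. Member overlaps, recomputed with RLE after seeing the data, gave the same counts.

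Same-numbered libraries of different groups correlated at −0.21 to 0.22 in Experiment 1 and −0.17 to 0.17 in Experiment 2, with 4 of 9 and 3 of 18 pairs over 0.1. Differently numbered libraries correlated at −0.26 to 0.19 and −0.16 to 0.23, with 4 of 18 and 2 of 36 pairs over 0.1. Such weak correlations cannot decide whether the numbers pair the libraries, and the main fit treated them as unpaired. With the replicate block, 24, 12, 31, 12 and 31 genes were called in Trim71KO, Ago2KO, T6B_WT, Trim71KO_empty and the libraries labelled Ago2KO_empty. Several members had under 10 reads per library in Trim71KO, which limits the precision of their folds.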
